A study of Mus musculus with 19 samples.

Results

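Noradrenaline reaches the neocortex through long, widely branching axons from the locus coeruleus, and cells respond to it through G protein-coupled adrenergic receptors of the alpha1, alpha2 and beta classes. Alpha1 receptors couple to Gq and raise intracellular calcium, alpha2 receptors couple to Gi/o, lower cyclic AMP and also act on noradrenergic terminals as autoreceptors, and beta receptors couple to Gs and raise cyclic AMP. Together they carry part of the effects of arousal and attention on cortical circuits.

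The genes described here are the 6 adrenergic receptor genes Adra1a, Adra1b and Adra1d (alpha1), Adra2a and Adra2c (alpha2) and Adrb1 (beta), taken by name from 9 adrenergic receptor genes, among 24130 Ensembl genes with an entry in any of the 7 libraries. The list was made with earlier results of these data known, and the other 3 genes had lower mean levels than these 6. Polyadenylated RNA was sequenced from segments cut across the depth of primary somatosensory cortex (S1) of male C57BL/6 mice (C57BL/6J in the study's methods) aged 56 days, and the labels name no treatment. Library A held mostly layers 1 to 3, B1 and B2 layer 4, C and D layer 5 (C the more superficial), E layer 6 and F layer 6b. B1 and B2 each pooled 4 littermates and are biological replicates (n = 2), whereas every other segment was a single library pooled from 8 mice, so no spread between mice is known for A, C, D, E or F. All segments came from the same 8 mice, those of B being divided by litter, so the libraries are not independent in their animals. The 12 samples from dorsal and lateral cortex were not used here.

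Levels are FPKM (fragments per kilobase of model, scaled to mapped fragments), which are scaled for length. Comparisons between genes change with the gene model and with GC correction, both described further on. The range given with a value is the 95% interval of the estimate within that library. Estimated depth ran from about 31400000 fragments in A to 75200000 in B2. The mitochondrial share of expression was 21.8% in A and 18.2% in B2 against 5.03% to 9.79% in the other 5 libraries, so A and B2 stand apart from the rest in this respect. All 8 layer markers were called by the trend test described further on, with Rorb (layer 4) highest in B2 at 22.1 FPKM and B1 at 17.8 FPKM and Ccn2 (also known as Ctgf, layer 6b) highest in F at 167 FPKM, as the labels of those libraries state. In dissected tissue, a change in the number of cells of a type cannot be told apart from a change in RNA per cell.

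The 6 receptors belong to one gene family, and the stretch around the DRY motif (aspartate, arginine, tyrosine) at the inner end of the third transmembrane helix, part of the site that engages G proteins, shows how far the members differ at the level of sequence. The windows are 39 bases of the coding strand of GENCODE M21 transcripts on GRCm38, each within 1 exon, with the 3 DRY codons in capitals. They lie at chr14:66637929-66637967 (plus strand) for Adra1a, chr11:43835642-43835680 (minus) for Adra1b, chr2:131561587-131561625 (minus) for Adra1d, chr19:54046632-54046670 (plus) for Adra2a, chr5:35280312-35280350 (plus) for Adra2c and chr19:56722819-56722857 (plus) for Adrb1.
Adra1a: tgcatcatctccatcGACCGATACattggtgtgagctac
Adra1b: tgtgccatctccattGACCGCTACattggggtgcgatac
Adra1d: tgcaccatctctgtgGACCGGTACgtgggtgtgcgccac
Adra2a: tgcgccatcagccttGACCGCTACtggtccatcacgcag
Adra2c: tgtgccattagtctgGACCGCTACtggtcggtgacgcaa
Adrb1: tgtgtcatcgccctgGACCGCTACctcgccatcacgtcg
Members of the same class were identical at 71.8% to 79.5% of these bases and members of different classes at 48.7% to 71.8%. Over whole transcripts, the longest run of identical bases shared by any of the 15 pairs of members was 26 bases, between Adra2a and Adra2c (gagtacaacctgaagcgcacgccgcg), which is shorter than a sequenced end of 50 bases. The runs were sought on the coding strand of 1 transcript per gene, for Adra1b ENSMUST00000139906. No end that matches one of these transcripts perfectly could therefore also match another perfectly on that strand. The other Adra1b model with a level, ENSMUST00000124306, described further on, was not compared.

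At the level of the gene, Adra1b had the highest mean of the 6 genes at 18.1 FPKM over the 7 libraries. It was higher in the deep libraries than in the superficial ones. This rank counts a transcript model not typed as protein coding, described further on, which made up from 49.4% of the level in F to 100% in A. The gene (ENSMUSG00000050541, mm9 chr11:43588108-43714712) encodes the alpha1B receptor. Its level was 7.22 FPKM (6.76 to 7.68) in A, 14.8 FPKM (13.5 to 16.2) in B1, 11.3 FPKM (10.2 to 12.3) in B2, 24.8 FPKM (22.8 to 26.8) in C, 24.6 FPKM (22.7 to 26.5) in D, 21.3 FPKM (19.7 to 23.0) in E and 22.3 FPKM (20.6 to 24.0) in F. All 4 deep libraries (C to F) lay above all 3 superficial ones (A, B1 and B2), and the intervals of C, D, F and E, in that order, overlapped from each to the next.

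Adra1d (ENSMUSG00000027335, mm9 chr2:131371586-131388021), which encodes the alpha1D receptor, had nearly the same mean level, 17.3 FPKM, and was lowest in layers 6 and 6b, where Adra1b was high. It stood at 9.23 FPKM (6.35 to 12.1) in A, 46.5 FPKM (42.9 to 50.0) in B1, 18.5 FPKM (15.9 to 21.2) in B2, 23.3 FPKM (19.7 to 26.8) in C, 15.1 FPKM (12.3 to 17.9) in D, 5.93 FPKM (4.51 to 7.35) in E and 2.28 FPKM (0.988 to 3.56) in F. Layer 4 was the highest segment, at 32.5 FPKM ± 19.7 (SD, n = 2), and layer 6b the lowest. The SD shows how far the replicates lay apart, and C fell between them: its interval overlapped that of B2 and not that of B1. Every library from A to D lay above E in level, although the intervals of A and E overlapped.

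Adra1a (ENSMUSG00000045875, mm9 chr14:67254095-67352166), the gene of the alpha1A receptor, had the lowest mean of the alpha1 genes by the Ensembl models, 2.51 FPKM. In the de novo loci described further on it stood above Adra1d in D, E and F. Its level was 1.01 FPKM (0.860 to 1.15) in A, 3.04 FPKM (2.81 to 3.28) in B1, 2.02 FPKM (1.87 to 2.17) in B2, 3.24 FPKM (2.98 to 3.50) in C, 3.10 FPKM (2.86 to 3.33) in D, 3.13 FPKM (2.89 to 3.38) in E and 1.99 FPKM (1.81 to 2.18) in F. C, E, D and B1 formed a group whose neighbouring intervals overlapped, B2 and F overlapped below it, and A was lowest.

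Adra2a (ENSMUSG00000033717, mm9 chr19:54119723-54123472), which encodes the alpha2A receptor, was low through layers 1 to 5 and high in layers 6 and 6b. Its level was 1.77 FPKM (1.57 to 1.98) in A, 1.64 FPKM (1.46 to 1.81) in B1, 1.24 FPKM (1.12 to 1.36) in B2, 1.20 FPKM (1.04 to 1.36) in C and 1.60 FPKM (1.43 to 1.78) in D. It then stood at 6.43 FPKM (6.06 to 6.79) in E and 18.1 FPKM (17.5 to 18.7) in F. On the scale of FPKM + 0.1, E was 3.83 times D and F was 2.79 times E, and both steps exceeded 1.27 on the log2 scale, the 95th percentile of the replicate difference in layer 4, with intervals apart. The other member of which this held at each of these steps was Adra1d, which fell, so that 2 of 6 members passed from D to E, against 1.72% of all genes, and 2 of 6 from E to F, against 3.87%. F was 15.1 times C, the lowest library.

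Adra2c (ENSMUSG00000045318, mm9 chr5:35621363-35624530), the gene of the alpha2C receptor, was highest in the superficial libraries. It stood at 7.16 FPKM (6.71 to 7.61) in A, 8.95 FPKM (8.50 to 9.41) in B1, 4.15 FPKM (3.90 to 4.40) in B2, 3.05 FPKM (2.76 to 3.33) in C, 4.05 FPKM (3.74 to 4.35) in D, 3.47 FPKM (3.17 to 3.76) in E and 2.48 FPKM (2.24 to 2.71) in F. The superficial and deep libraries did not overlap in level, but only narrowly: the interval of B2, the lowest of the superficial libraries, overlapped that of D, the highest of the deep ones.

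Adrb1 (ENSMUSG00000035283, mm9 chr19:56796862-56798262), which encodes the beta1 receptor, was highest in B1 and ran from 4.56 to 7.54 FPKM among the other libraries. Its level was 5.80 FPKM (5.20 to 6.41) in A, 15.0 FPKM (14.1 to 15.8) in B1, 5.47 FPKM (5.04 to 5.89) in B2, 6.98 FPKM (6.34 to 7.63) in C, 7.54 FPKM (6.90 to 8.17) in D, 6.66 FPKM (6.05 to 7.26) in E and 4.56 FPKM (4.07 to 5.05) in F. Below B1, each library in the order D, C, E, A, B2 and F overlapped its neighbour, but libraries further along that order, such as D and F, had intervals apart. Layer 4 averaged 10.2 FPKM ± 6.71 (SD, n = 2), although B2 on its own was below A.

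**Figure D1:**
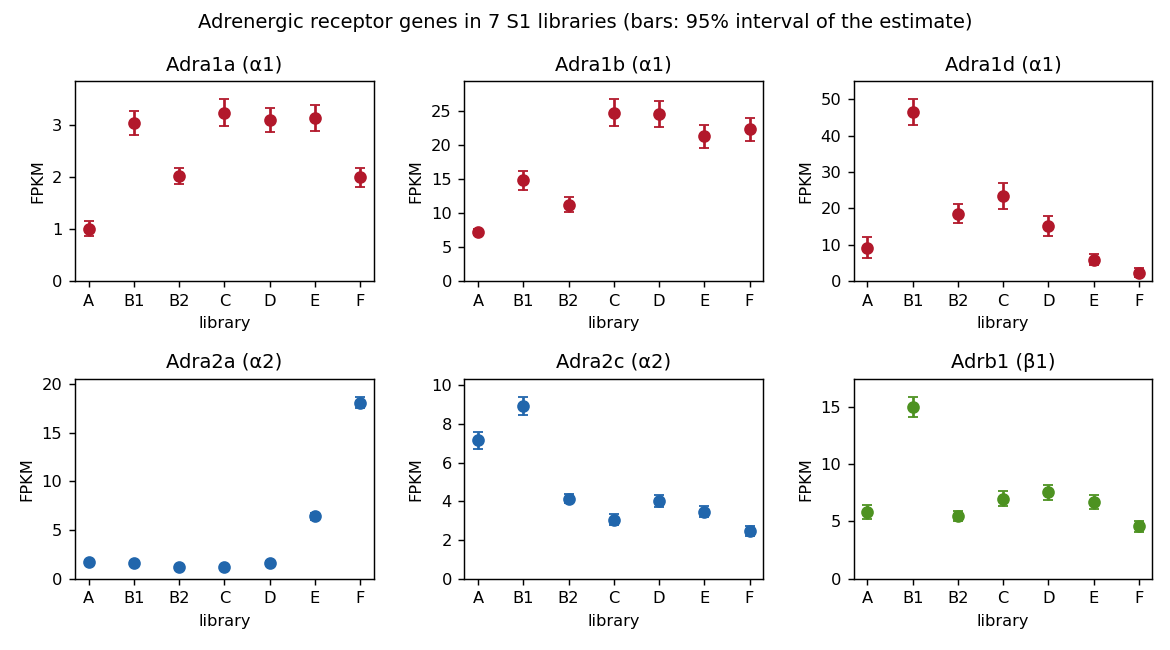
Level of each gene (FPKM, vertical axis from 0) in each S1 library from superficial A to deep F (horizontal axis). Points are single libraries, bars are the 95% interval of the estimate, and B1 and B2 are the layer 4 replicates; Adra2a reaches 18.1 FPKM in F and is below 2 FPKM from A to D, whereas Adra1d is highest in B1.

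Adra2b and Adrb3 had lower means than the members, of at most 0.589 FPKM. Adra2b (alpha2B) was at most 0.0854 FPKM, in A, had no entry in D, and was not tested because its mean was below 0.1 FPKM. Adrb3 (beta3) was low but graded, at 1.41 FPKM in A, 1.06 FPKM in B1, 0.784 FPKM in B2, 0.273 FPKM in C, 0.227 FPKM in D, 0.160 FPKM in E and 0.204 FPKM in F. All 3 superficial libraries lay above all 4 deep ones, although its widest interval spanned 135% of its mean.

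The intervals alone called many differences, and also between replicates. Over the 21 pairs of libraries, the members' intervals were apart in 96 of 126 comparisons (76.2%), where 52.6% of the comparisons of all 17844 genes tested were apart. All 6 members had intervals apart between B1 and B2, against 48.5% of all genes, and 2 of them, Adra1d and Adrb1, also passed the limit on the ratio given next, against 4.55%. When the log2 ratio also had to exceed 1.27, the 95th percentile of the size of the log2 difference between the layer 4 replicates, 40 of the 126 comparisons remained (31.7%, against 11.0% of those of all genes). Adra1d accounted for 14 and Adra2a for 11 of them, Adra1a, Adra1b and Adra2c for 4 each and Adrb1 for 3. Of the 3 for Adrb1, each set B1 against another library, including its own replicate.

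The layer 4 replicates differed in each of the 6 genes. Adrb1 was 2.71 times higher in B1 than in B2 on the scale of FPKM + 0.1, Adra1d 2.50 times, Adra2c 2.13 times, Adra1a 1.48 times, Adra1b 1.31 times and Adra2a 1.30 times. All 6 were higher in B1, as were 45.8% of the genes tested. The log2 ratio of B2 to B1 fell with the GC content of the transcripts (Spearman's rho of -0.503 across genes, which are not independent replicates), and Adra1d (65.4% GC) and Adra2c (65.5% GC) were both at the 99.5th percentile of GC content. After a correction that set the median of each of 20 GC bins equal between libraries, B1 was 1.67 times B2 for Adra1d, 1.43 times for Adra2c, 1.17 times for Adra1b and 0.998 times for Adra2a. It was still 2.63 times for Adrb1, whose GC content is 53.4%, and rose to 1.60 times for Adra1a. The size of the gap for Adrb1 depends on the gene model: its de novo locus, described further on, stood at 14.8 FPKM in B1 and 9.28 FPKM in B2.

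**Figure D2:**
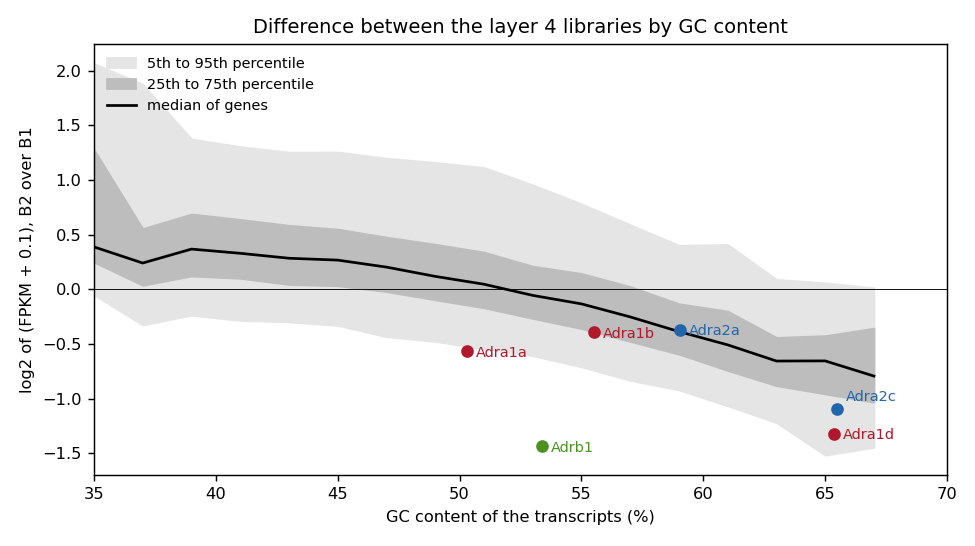
Difference between the layer 4 replicates (log2 of FPKM + 0.1, B2 over B1, vertical axis) against the GC content of the transcripts (%, horizontal axis). The line and bands are the median and percentiles of genes tested in bins of 2% GC, and points are the 6 members, all below 0; Adrb1 lies at -1.44 although genes of its GC content center near -0.07.

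The relation to depth was tested with limma over the 7 libraries as a linear and a quadratic term in segment position, with A at 1 and F at 6. By this moderated F-test, 4 of the 6 members passed an adjusted p of 0.05 (Benjamini-Hochberg over 17844 genes), against 36.5% of all genes tested (28.3% with a rising and 8.20% with a falling slope), so that a call is common in these data. Where called genes are counted as rising or falling, the sign of a straight-line slope is meant. The F-test does not test that sign by itself, so such a gene can also follow an arch or a dip. Adra2a rose with depth by 0.66 per segment on the log2(FPKM + 0.1) scale, with a quadratic term of 0.31 ± 0.05 (SE) that bends it upward (adjusted p = 0.00255). Adra1b rose by 0.29 per segment and levelled off, with a quadratic term of -0.15 ± 0.04 (adjusted p = 0.00753). Adra1d fell by 0.54 per segment with a quadratic term of -0.35 ± 0.08 (adjusted p = 0.00845), the arch having its top at position 2.74, between layer 4 and C. Adra1a changed mainly as an arch with its top at position 3.87, near D (quadratic term -0.19 ± 0.04, adjusted p = 0.0198).

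Adra2c, with a slope of -0.28 per segment, did not pass (adjusted p = 0.0930), nor did Adrb1, with a slope of -0.10 (adjusted p = 0.386). By class, the trend called 3 of 3 alpha1, 1 of 2 alpha2 and 0 of 1 beta members. The calls leaned on single libraries: without A, Adra1b (adjusted p = 0.121) and Adra1a (0.282, its slope then turning to -0.03) were lost, without F Adra1d was lost (0.0545), and without C or E Adra1a was lost (0.0596 and 0.0539). Without A only 1402 genes were called in place of 6521. Adra2a passed with each library left out in turn, but its size rested on F: without F its slope was 0.38 (adjusted p = 0.0230), below the 0.40 of Adra1b, and that of Adra1d was -0.28. Without A the slope of Adra1d was -0.87 and that of Adra1b was 0.19.

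**Figure D3:**
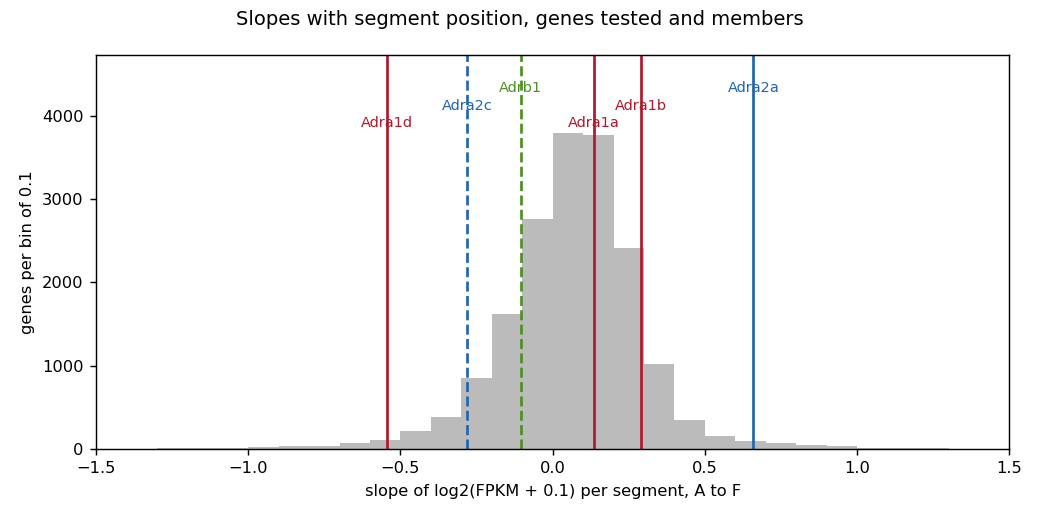
Slope of log2(FPKM + 0.1) per segment from A to F (horizontal axis) for the 17844 genes tested (grey, genes per bin of 0.1) and for the members (lines, red alpha1, blue alpha2, green beta, solid where the trend test passed and dashed where it did not). Adra2a lies at 0.66 and Adra1d at -0.54; without F they were 0.38 and -0.28, and Adra1b, here at 0.29, was 0.40.

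Superficial libraries (A, B1 and B2) were also compared with deep ones (C to F). None of the 6 members passed an adjusted p of 0.05 by limma, against 0.504% of all genes (90 of 17844), and 2 of them, Adra1b and Adra2c, had an unadjusted p under 0.05, against 29.2% of all genes. Adra1b was higher in deep libraries by 1.12 ± 0.25 (SE) on the log2 scale, with a 95% interval of 0.55 to 1.68 (adjusted p = 0.0817). Adra2c was lower by a difference of -0.98 ± 0.30, with an interval of -1.66 to -0.31 (adjusted p = 0.103). These are also the only members whose deep and superficial libraries did not overlap in level, which held for 31.7% of all genes tested.

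The other differences had intervals that included 0. They were 1.30 ± 0.84 for Adra2a (interval -0.61 to 3.22), -1.25 ± 0.81 for Adra1d (-3.11 to 0.62), 0.58 ± 0.36 for Adra1a (-0.25 to 1.42) and -0.30 ± 0.37 for Adrb1 (-1.14 to 0.54). Without F the difference was 0.58 for Adra2a and -0.64 for Adra1d. For both genes the deep libraries spanned a wide range, from 1.20 to 18.1 FPKM and from 2.28 to 23.3 FPKM. The median difference of all genes tested was itself 0.25 on the log2 scale with FPKM as deposited, and -0.04 when libraries were scaled by median of ratios. Relative to that median of 0.25, the differences were 0.34 for Adra1a, 0.87 for Adra1b, -1.49 for Adra1d, 1.06 for Adra2a, -1.23 for Adra2c and -0.55 for Adrb1, and their signs were the same under both scalings. Adrb3, which is no member, passed, at -1.88 ± 0.28 (adjusted p = 0.0342, trend adjusted p = 0.00654), a call that was lost without any one of A, B1, B2, D, E or F, with adjusted p from 0.0515 to 0.149.

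Ratios of genes within a library do not depend on how that library is scaled, and they set the depth profiles of subtypes of 1 class against each other. They are not free of the GC differences between libraries, as Adra1b (55.5% GC) and Adra1d (65.4%) differ in GC content, and so do Adra2a (59.0%) and Adra2c (65.5%). With GC correction, Adra1b and Adra1d stood at 14.5 and 36.5 FPKM in B1 and at 12.4 and 21.9 FPKM in B2. The ratios that follow are uncorrected. The ratio of Adra1b to Adra1d was 0.783 for A, 0.320 for B1 and 0.608 for B2, then 1.06 for C, 1.63 for D, 3.60 for E and 9.80 for F. By these values Adra1d was the higher of the pair in A, B1 and B2 and Adra1b in C to F. The intervals of both genes overlapped in A and in C, however. In the de novo loci described further on the order in A was the other. There Adra1b stood at 8.75 FPKM (8.19 to 9.31) and Adra1d at 7.37 FPKM (6.13 to 8.60). In C and D the order also depends on counting an Adra1b transcript not typed as protein coding, described further on. The transcript typed as coding stood at 8.93 FPKM in C and 10.3 FPKM in D, below Adra1d at 23.3 and 15.1 FPKM. In E and F it stood at 10.2 and 11.3 FPKM, above Adra1d at 5.93 and 2.28 FPKM. The ratio of Adra2a to Adra2c was 0.248 for A, 0.183 for B1, 0.299 for B2, 0.394 for C and 0.397 for D, then 1.85 for E and 7.31 for F. Adra2c was the main alpha2 gene down to layer 5 and Adra2a in layers 6 and 6b.

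Summed by class at the level of the gene, the alpha1 genes, 3 of the 6, held the largest share in every library. Their share of the summed FPKM of the 6 genes was 54.2% for A, 71.6% for B1, 74.6% for B2, 82.0% for C, 76.4% for D, 64.8% for E and 51.4% for F. The alpha2 share ran the other way, at 27.8% for A, 11.8% for B1, 12.6% for B2, 6.79% for C, 10.1% for D, 21.1% for E and 39.8% for F. The share was thus highest in F and next in A, made up mostly of Adra2a in F and of Adra2c in A. The summed alpha2 level itself was 8.94 FPKM in A, below 10.6 FPKM in B1 and 9.89 FPKM in E, and the share in A goes with an alpha1 sum of 17.5 FPKM, the lowest of the 7 libraries. The beta share, which is Adrb1 alone, ranged from 8.82% in F to 18.0% in A. In layer 4 the classes held 73.1% ± 2.12, 12.2% ± 0.60 and 14.7% ± 2.71 (SD, n = 2) for alpha1, alpha2 and beta, so that the replicates were close in share while their sums were 89.9 FPKM in B1 and 42.7 FPKM in B2. Alpha1 exceeded alpha2 by 12.1 times in C and by 1.29 times in F. The alpha1 sum of 26.6 FPKM in F includes 11.0 FPKM of an Adra1b transcript not typed as protein coding, described further on. As alpha2 stood at 20.6 FPKM there, the order of these classes in F depends on counting that transcript. These sums compare RNA per length and do not measure receptor protein.

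**Figure D4:**
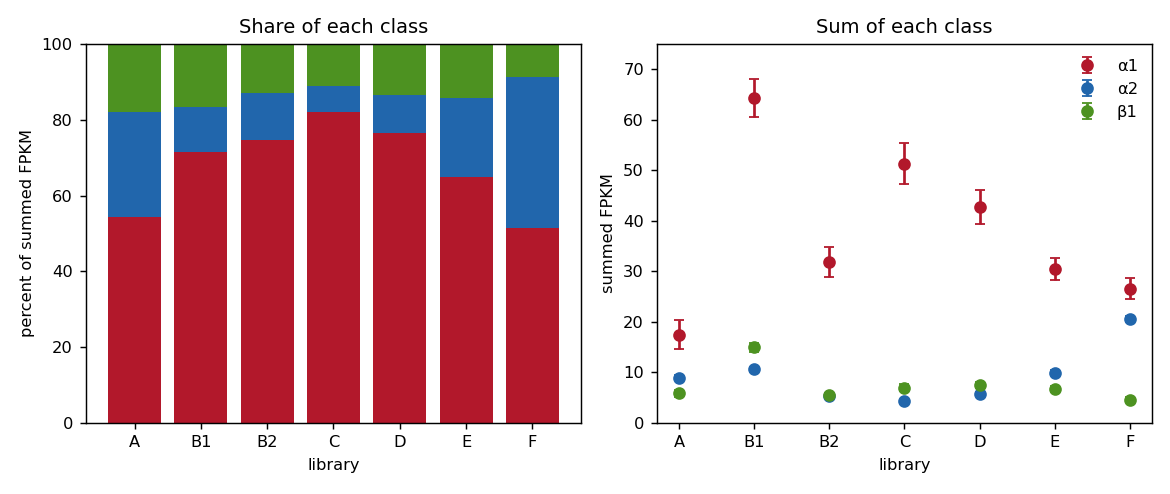
Left, percent of the summed FPKM of the 6 genes held by each class in each library (bars stacked to 100; red alpha1, blue alpha2, green beta, which is Adrb1). Right, summed FPKM of each class, with bars for the interval obtained from the members' 95% intervals taken as independent. Alpha2 rises from 4.25 FPKM in C to 20.6 FPKM in F. Alpha1, which includes an Adra1b transcript not typed as protein coding, stays above it.

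Adra1b was the 1 member for which the deposited files list transcripts from starts far apart. The files hold ENSMUST00000124306, a model of 3047 nt that begins at the downstream start (mm9 chr11:43588108-43649834) and that GENCODE M21 types as a processed transcript, not as protein coding, and ENSMUST00000139906, of 1764 nt, from the upstream start (mm9 chr11:43589525-43714712), typed as protein coding. GENCODE M21 also has a protein-coding transcript from the downstream start, ENSMUST00000167574, with no level here. RefSeq holds a promoter for each start on GRCm38.p6. As a transcript model from each start has a level here, the 250 bases before each are shown, 5′ to 3′ on the strand of the gene (minus), with CG pairs in capitals. The starts themselves were not measured. The downstream one is chr11:43836490-43836739, whose start lies 157 bases from the GENCODE start of ENSMUST00000124306, and the upstream one is chr11:43901238-43901487, 27 bases from that of ENSMUST00000139906.
Adra1b downstream: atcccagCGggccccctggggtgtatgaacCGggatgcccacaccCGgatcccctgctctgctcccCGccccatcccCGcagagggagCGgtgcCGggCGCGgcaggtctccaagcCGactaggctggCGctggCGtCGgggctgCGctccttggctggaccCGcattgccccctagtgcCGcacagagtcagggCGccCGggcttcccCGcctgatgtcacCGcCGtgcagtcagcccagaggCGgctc
Adra1b upstream: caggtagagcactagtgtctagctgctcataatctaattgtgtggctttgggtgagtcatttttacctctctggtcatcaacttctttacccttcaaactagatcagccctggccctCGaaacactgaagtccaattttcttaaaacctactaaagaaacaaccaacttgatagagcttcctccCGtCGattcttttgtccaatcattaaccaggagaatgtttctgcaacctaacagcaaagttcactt
The downstream promoter has 22 CG pairs and 72.8% GC, the upstream one 3 CG pairs and 41.6% GC, and the median of the 32851 RefSeq promoters is 6 pairs and 52.4%. Neither holds TATAAA on either strand, which 12.4% of all promoters do.

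The transcript from the downstream start stood at 7.22 FPKM (6.76 to 7.68) in A, 8.04 FPKM (7.37 to 8.70) in B1, 7.87 FPKM (7.33 to 8.41) in B2, 15.9 FPKM (14.8 to 16.9) in C, 14.3 FPKM (13.4 to 15.2) in D, 11.1 FPKM (10.3 to 11.96) in E and 11.0 FPKM (10.2 to 11.8) in F. The transcript from the upstream start had no entry in A and stood at 6.81 FPKM (5.79 to 7.83) in B1, 3.40 FPKM (2.63 to 4.18) in B2, 8.93 FPKM (7.47 to 10.4) in C, 10.3 FPKM (8.87 to 11.7) in D, 10.2 FPKM (8.94 to 11.5) in E and 11.3 FPKM (9.99 to 12.6) in F. The level of the gene is thus in part that of a model not typed as coding, from 49.4% in F to 100% in A. The upstream part of the gene was 36.0% in C and 50.6% in F, and 45.9% and 30.2% in the replicates B1 and B2. The downstream transcript was higher in C than in F beyond the intervals, and the upstream one had overlapping intervals there. In no pair of libraries did the transcripts change in opposite directions with both intervals apart. The missing entry in A does not show that the transcript was absent. The models overlap in span, so the split of the level between them is an estimate. Of 3 de novo loci that overlap Adra1b, 1 was in all libraries, at mm9 chr11:43588812-43649984. It did not reach the upstream start, although its level was from 0.959 times that of the gene in F to 1.21 times in A.

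**Figure D5:**
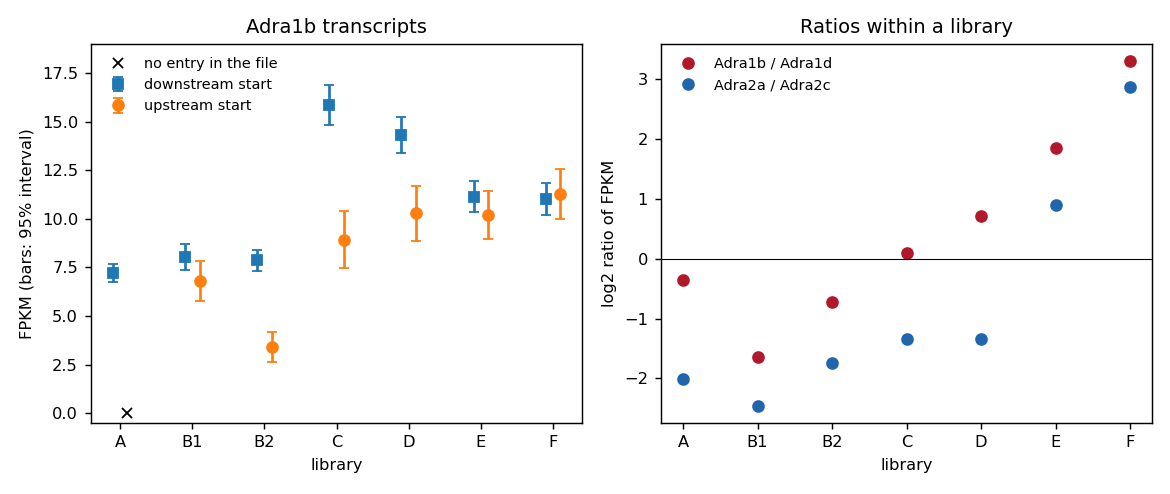
Left, FPKM of the Adra1b transcripts from the downstream start (squares) and the upstream start (circles) in each library, with 95% intervals; the cross marks the library without an entry. Right, log2 ratio of FPKM within each library for Adra1b over Adra1d and Adra2a over Adra2c, which pass 0 between B2 and C and between D and E and reach 3.29 and 2.87 in F. Adra1b enters this ratio at the level of the gene, which includes the downstream transcript, not typed as protein coding.

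Adra1d has a pair of nearly identical models, ENSMUST00000103184 of 1899 nt and ENSMUST00000028810 of 1806 nt, and the latter took 90.0% of the gene in B1 and 51.1% in F. The share also differed between the replicates, with 68.6% in B2, so only the sum is described here. An antisense gene, Gm14285 (ENSMUSG00000087524, mm9 chr2:131387350-131388915), shares 672 bases of span with the 5′ end of Adra1d on the opposite strand. The libraries do not mark strand, so reads in the shared part cannot be assigned to either gene. Gm14285 stood at 3.79 FPKM in A and at 0.259 FPKM in E to 2.19 FPKM in B2 elsewhere, all below Adra1d in the same library. The remaining 4 members have 1 listed transcript each.

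The de novo loci that cufflinks built at the members, a second count of the same reads, gave the same order of the 7 libraries for Adra1b, Adra1d and Adra2c (Spearman's rho of 1). For Adra2a they gave 3.30 FPKM in A, 1.95 FPKM in B1, 2.09 FPKM in B2, 1.71 FPKM in C, 2.52 FPKM in D, 9.97 FPKM in E and 27.1 FPKM in F (rho of 0.893). The order differed for Adrb1 (rho of 0.464), where A rose to 10.5 FPKM, next below B1 at 14.8 FPKM, and B2 to 9.28 FPKM. For that gene the de novo level was 1.82 times the Ensembl level in A and 1.70 times in B2, but 0.987 times in B1. The order also differed for Adra1a (rho of 0.393), where D was highest at 13.8 FPKM and A lowest at 5.65 FPKM. Its locus stood above that of Adra1d in D (11.8 FPKM for Adra1d, with intervals overlapping). The same held in E (11.6 against 5.03 FPKM) and F (8.33 against 1.80 FPKM). The Ensembl model of Adrb1 is 1401 nt, its coding length, while that of GENCODE M21 is 2952 nt, and the Adra1a span overlaps 27 de novo loci.

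Several cell type markers were also higher in E and F, where Adra2a was highest, and their profiles from A to D differed among them. All 6 oligodendrocyte markers (Mbp to Cnp) were called rising by the trend test, and their summed FPKM was 312 to 818 in the superficial and 1581 to 12042 in the deep libraries, with none at 0. Their sum already rose from 312 FPKM in A to 2119 FPKM in D, and then to 3935 FPKM in E and 12042 FPKM in F. Of 3 markers of oligodendrocyte precursors, 2 rose, with sums of 4.37 to 8.41 against 11.8 to 30.8 FPKM. Of 6 astrocyte markers 3 were called with a rising slope (sums 289 to 470 against 425 to 630 FPKM). Their sum was 437 FPKM in E, below 458 FPKM in B1 and 470 FPKM in B2, and was highest in F. Ccn2 of layer 6b stood at 1.24 FPKM in A, 0.634 FPKM in B1, 0.794 FPKM in B2, 1.51 FPKM in C and 3.53 FPKM in D. It then stood at 31.4 FPKM in E and 167 FPKM in F. The part of these cells in the rise of Adra2a was not tested. RefSeq's promoter of Adra2a (GRCm38.p6 chr19:54045009-54045258, plus strand, the 250 bases before the start) is shown because its gene rose at the steps from D to E and from E to F beyond the replicate limit.
Adra2a: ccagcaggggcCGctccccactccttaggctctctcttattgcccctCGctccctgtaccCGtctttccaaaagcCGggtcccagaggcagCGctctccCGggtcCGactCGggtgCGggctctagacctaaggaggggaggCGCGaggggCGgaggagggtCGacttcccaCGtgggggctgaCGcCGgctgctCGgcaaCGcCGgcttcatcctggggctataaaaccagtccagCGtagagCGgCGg
This start lies 1 base from the GENCODE M21 start of ENSMUST00000237285 and 1108 bases downstream of that of ENSMUST00000036700. The levels given here are those of ENSMUST00000036700, but from a shorter model of 3750 nt, against 4832 nt in GENCODE M21. As coordinates were not converted, the distance of this start from that of the measured model is not given. The stretch holds 22 CG pairs, in capitals, and a TATAAA that begins 29 bases before the start. It also holds CACGTG, which 6.02% of all promoters do. These matches are descriptions of the letters only.

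Some other marker sums were highest or lowest in A. Leptomeningeal markers (4 of 5 falling, sums of 2.52 to 19.7 FPKM in superficial and 1.96 to 2.63 FPKM in deep libraries) were highest in A. Of 5 smooth muscle and pericyte markers 3 fell (sums 33.4 to 59.0 against 21.5 to 28.7 FPKM), with Tagln listed at 0 in C, D, E and F. Of 4 endothelial markers 1 fell. Adra2c was highest in B1, where the leptomeningeal sum was 2.52 FPKM, within its range in the deep libraries. The part of these cells in the levels of Adra2c and of Adrb3, which is no member, was not tested. Pan-neuronal markers summed to 1415 FPKM in A and to 2265 to 2952 FPKM in the other 6 libraries, with 2 of 4 rising and 1, Rbfox3, falling, and their part in the low levels of Adra1a and Adra1b in A was not tested. Of 6 interneuron markers, 3 had rising and 2 falling slopes, and of 5 microglial markers, 3 rising and 1 falling.

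The genes whose profile was most like that of each member, by the root mean square difference of centred log2(FPKM + 0.1) over 7 libraries among 9795 genes, were as follows. Those nearest to Adra2a were Padi2, Clic5 and Syndig1l, at 0.35 to 0.40, and Padi2 stood at 7.90 FPKM in E and 25.5 FPKM in F. Nearest to Adra1d were Grm2, Ptgfrn and Prr16, at 0.32 to 0.40, and Grm2, a metabotropic glutamate receptor gene, stood at 46.9 FPKM in B1 and 3.31 FPKM in F. Adra1b lay nearest to Kank4, Galnt9 and Rab3gap2 (0.09 to 0.12) and Adra1a to Mansc1, Plxna4 and Clec16a (0.07 to 0.11). Adra2c lay nearest to Ism1, Tmem198 and Zfpm1 (all 0.13) and Adrb1 to Egr3, Pdzd2 and Mypop (0.14 to 0.16). The closest pair among the members themselves was Adra1a and Adra1b, at 0.35, and for Adra2a the closest member was Adra1b, at 1.27.

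Beyond the receptors, 58 genes that make, move, break down or transmit the signal of noradrenaline were listed, of which 55 were tested. The trend test called 30 of them (54.5%, against 36.5% of all genes), 23 with a rising and 7 with a falling slope. Under median of ratios scaling 11 rose and 11 fell, so the direction of the lists as a whole follows the scaling, as did that of all genes (77.5% of calls rising against 49.7%). The median difference between deep and superficial libraries was 0.32 over the lists and 0.25 over all genes tested. The superficial and deep libraries differed for 2 of the 55, among them Adrb3.

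Of 11 genes of synthesis, storage, uptake and breakdown, 9 were tested, and 3 were called with a rising and 2 with a falling slope. Th, tyrosine hydroxylase, which makes the precursor of both dopamine and noradrenaline, stood at 0.0629 FPKM in A, was listed at 0 in B1, and stood at 0.0571 FPKM in B2, 0.413 FPKM in C, 1.57 FPKM in D, 3.34 FPKM in E and 2.93 FPKM in F (adjusted p of the trend 0.00730). Ddc, the decarboxylase that follows it, rose from 0.671 FPKM in A to 5.40 FPKM in F (adjusted p = 0.00602). Dbh, which makes noradrenaline itself, and Slc6a2, its transporter, had means below 0.1 FPKM and were not tested. Pnmt (adjusted p = 0.0220) and the transporter gene Slc29a4 (adjusted p = 0.0403, and 0.0705 with GC correction) fell, the latter from 4.86 FPKM in A to at most 1.62 FPKM elsewhere.

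Of the 11 genes of the Gq arm, which alpha1 receptors use, 4 were called with a rising and 2 with a falling slope. Itpr1, a calcium channel of internal stores, rose (adjusted p of the trend 0.00564). Prkca, protein kinase C alpha (adjusted p = 0.0109), and Gna11, a Gq-family alpha subunit (adjusted p = 0.0266), fell. Of the 10 genes of the Gi/o arm, which alpha2 receptors use, 6 were called with a rising slope. Among them were the Gi alpha subunit gene Gnai3 (adjusted p = 0.00809, and 0.0601 with GC correction) and Gnai2 (adjusted p = 0.0269), which was highest at both ends, 86.9 FPKM in A and 92.0 FPKM in F, and whose slope of 0.01 turned to -0.09 under median of ratios scaling.

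Of the 12 genes of the Gs arm, which beta receptors use, 6 were called with a rising slope and none with a falling one. Gnal, a Gs-family alpha subunit, stood at 12.8 FPKM in A and 45.4 FPKM in F (adjusted p of the trend 0.00433). Adcy3, an adenylyl cyclase, stood at 5.13 FPKM and 14.4 FPKM (adjusted p = 0.0105, and 0.0503 under median of ratios scaling). Of 11 genes of desensitisation and scaffolding, 4 were called with a rising and 2 with a falling slope, and those 4 include an arch and a dip. Grk3 and Grk5, kinases that act on active receptors, rose (adjusted p = 0.00588 and 0.0278, the latter 0.147 under median of ratios scaling). Rgs4, a regulator that shortens Gq and Gi/o signals, fell from 267 FPKM in B1 and 336 FPKM in B2 to 48.7 FPKM in F (adjusted p = 0.00342), and Akap5, an anchor of protein kinase A, fell from 36.3 FPKM in B1 to 15.7 FPKM in F (adjusted p = 0.0310).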

How the data were processed

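The authors mapped paired reads of 50 nt to the mouse genome (mm9) with TopHat 1.0.13 and estimated FPKM with 95% intervals with Cufflinks 0.8.3 for Ensembl release 57 genes, transcripts and de novo loci, as given in the submitters' processing notes and the study's methods. The deposited FPKM values are scaled for length and mapped fragments. The read coverage that the authors deposited per transcript was used with FPKM to estimate depth, as the files used here hold no read counts. The intervals cover estimation within a library and not variation between mice. A missing entry counted as 0.

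Symbols came from GENCODE M21 and sequences from GENCODE M21 or RefSeq (GRCm38), matched by identifier or symbol, with no conversion of coordinates. RefSeq promoters were found for 4 of the 6 members. Genes whose mean FPKM reached 0.1 were tested with limma 3.58.1 (R 4.3.3, eBayes with trend) on log2(FPKM + 0.1), with Benjamini-Hochberg adjustment over all 17844. This scale understates changes of low genes, and p-values measure spread between these libraries, not between mice. The scripts were tested on simulated data. All tests are 2-sided. Class sums, isoforms, de novo loci and ratios had no test. Superficial means A, B1 and B2, and deep means C to F. Alternatives varied filters, pseudocount, scaling, GC correction, libraries left out and terms of the model. The members, the lists and the tests were chosen with earlier results of these data known. Genes outside the members were named by a rule: per pathway list, up to 2 called in either test with the largest difference between deep and superficial libraries in each direction, and per member the 3 with the most similar profile, with a mean of at least 1 FPKM and a widest interval of at most 50% of it. Some genes that the rule named are not reported here. Of each marker list, the genes with the lowest and highest difference could be named. Dbh, Slc6a2, Rorb and Gfap were chosen after their values were seen.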

Additional observations from a re-analysis of the deposited data

How the results depend on the processing

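The trend test called 6521 genes, and 2662 with the linear term alone, 0 with limma's F-test across the 6 segments (1 residual degree of freedom, 2881 genes and 1 member at an unadjusted p under 0.05), and 1402 to 9200 when single libraries were left out. Of the 6 members it called 4, and 1 (Adra2a) with the linear term alone, 0 across the 6 segments, and 2 to 4 when single libraries were left out. In the other alternatives 3 to 5 members were called: Adra1a was lost with GC correction (adjusted p = 0.0551), and Adra2c passed under median of ratios scaling (0.0498) and with the layer 4 libraries averaged (0.0391). The comparison of superficial and deep libraries called 90 genes, and 40 without a filter, 56 among genes with intervals of at most 50% of the mean, and 15 to 162 when single libraries were left out. It called 0 members under every alternative run (limma, with 2 to 3 members at an unadjusted p under 0.05). Of the 90 genes, 62.2% were higher in deep libraries, against 47.4% of 76 under median of ratios scaling. The slope of Adra1a turned to -0.032 without A and ran up to 0.31 with other single libraries left out. The difference of Adrb1 turned to 0.16 without B1 and ran down to -0.55 with others left out. None that turned was past the threshold. The alpha1 share in layer 4 was 73.1%, 69.1% from de novo loci, and 71.6% to 74.6% with a replicate left out. The alpha2 share in F was 39.8%, 40.9% with GC correction and 44.9% from de novo loci. The beta share in A was 18.0%, 21.7% with GC correction, 24.0% from de novo loci and 22.0% over all 9 receptor genes. The cause of these changes was not tested. No paired analysis was possible because every segment other than layer 4 was a single pool of all the mice, and layer 4 alone was divided by litter. Single libraries for 5 of 6 segments limit every comparison, and levels near 0.1 FPKM, such as those of Adra2b, are too low to rank.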
